A study of Mus musculus with 30 samples.

Results

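The 10 genes followed here belong to the interleukin-6 (IL-6), interleukin-1 (IL-1) and STAT3 signalling routes of the liver, and were measured in mice made anorexic in different ways. They are the receptor genes Il6ra, Il6st, Osmr, Lifr and Il1r1 and the transcription factor gene Stat3. Also among them are the inhibitor genes Socs3, Il1rn and Nfkbia, and Nfkbiz, whose nuclear protein modulates NF-kB. The 10 genes were taken by symbol from a gene count table of 48440 genes, where each had 1 row. All 10 were among the 16304 genes with enough reads to be tested. The mice were wild-type C57BL/6J females aged 8 weeks, and each was given an osmotic pump with either PBS or the protein ACBP/DBI (acyl-CoA-binding protein, also called diazepam-binding inhibitor) at 2.5 mg/mL. Liver messenger RNA was sequenced from 30 libraries, 5 in each of 6 groups.

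The group called PBS had the PBS pump and no anorexia treatment. CDDP mice had the PBS pump and received CDDP (cisplatin, a platinum drug that crosslinks DNA) 72 h after the pump was placed. CRS mice had the PBS pump and were subjected to CRS from 48 h after the pump was placed; the labels give these letters alone, which in this study stand for chronic restraint stress. Rec-ACBP mice had the ACBP pump and no anorexia treatment, and the Rec-ACBP+CDDP and Rec-ACBP+CRS mice had the ACBP pump and then CDDP or CRS. No group of untreated mice on restricted food was among these samples, so a treatment and eating less under it cannot be told apart. Whether the 30 libraries are 30 separate mice is not given in the labels, so the p-values measure the spread between these libraries.

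IL-6 binds its receptor Il6ra, and the pair engages gp130 (encoded by Il6st), the signalling chain that oncostatin M and leukaemia inhibitory factor (LIF) share through the partner chains Osmr and Lifr. Gp130 activates JAK kinases, which phosphorylate STAT3, and in hepatocytes STAT3 switches on acute phase genes and its own inhibitor Socs3. IL-1 acts through Il1r1, which Il1rn (the IL-1 receptor antagonist) blocks, and leads to NF-kB, which is restrained by the inhibitor protein that Nfkbia encodes and modulated by the related nuclear protein of Nfkbiz. In the liver both routes are known as the main inducers of the acute phase response.

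Libraries held 13957380 to 18479134 reads on genes. Levels are given as CPM, read counts scaled to the size of the library with TMM (a factor per library that offsets differences in composition). The summed CPM of 6 hepatocyte markers ran from 41774 to 131451 with none at 0 in any library. CDDP replicate 5 stood apart: its TMM factor of 0.701 was the lowest of the 30 (the others ran from 0.920 to 1.19), it had the 131451 CPM of hepatocyte markers, and 8.13% of the genes tested were outliers in it within its group. CDDP livers also differed from PBS livers in their other markers. Summed CPM of 10 neutrophil and monocyte markers was 19.4 to 79.3 with CDDP (0 to 2 of the 10 at 0) against 2.25 to 4.50 with PBS (3 to 6 at 0), that of 10 Kupffer cell markers 194 to 291 against 339 to 408, that of 6 B and plasma cell markers 1.003 to 4.88 against 9.54 to 17.6, that of 8 T and NK cell markers 0.836 to 3.13 against 4.07 to 7.50, that of 5 red cell markers 6.97 to 9.33 against 257 to 470, and mitochondrially encoded genes took 2.74 to 3.81% of reads against 9.24 to 13.5%. The lists did not move as one: of the 10 Kupffer cell markers 6 were lower and 1 (Marco) higher by edgeR, and of the neutrophil and monocyte markers 5 of 10 could be tested, of which Chil3, S100a8 and S100a9 were higher and Ly6c2 and Ccr2 did not pass. The hepatocyte sum was mostly Alb (63202 ± 11110 CPM in PBS). Without CDDP replicate 5, 2 of the 6 hepatocyte markers were higher and 2 lower with CDDP by edgeR. In that fit 3 of 5 cholangiocyte markers were higher. Of 8 sinusoidal endothelium markers 1 was higher and 2 lower, and of 10 stellate cell markers 1 and 3. In bulk liver, fewer cells of a type and less RNA per cell cannot be told apart. The part of these shifts in the results for the 10 genes was not tested. A set of 7 libraries carried over 1000 CPM of 8 skeletal muscle markers or over 100 CPM of 6 brain markers. Counts of calls without these 7 are given beside the main counts.

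By annotation on mm10 (GENCODE vM21) the 10 genes lie on separate chromosomes, with the following exceptions. Stat3 (chr11:100885098-100939540) and Socs3 (chr11:117966079-117970047) share chromosome 11 and the minus strand but lie far apart. Osmr (chr15:6813577-6874969) and Lifr (chr15:7090614-7197489) lie near each other on chromosome 15 on opposite strands. Il6ra spans chr3:89864059-89913196, Il6st chr13:112464070-112510086, Il1r1 chr1:40225080-40317257, Il1rn chr2:24336853-24351494, Nfkbia chr12:55489410-55492647 and Nfkbiz chr16:55811375-55838899. Exons of Stat3 share 72 bases with Stat5a on the opposite strand (0.76% of its exonic length) and exons of Il6ra share 242 bases (2.80%) with the antisense gene Gm42809. The library kit keeps strand, but the strand setting of the counting is not given in the sources used here, so reads in those stretches cannot be assigned with certainty.

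Promoter sequences are shown for Socs3 and Nfkbia, whose windows hold a response element of these routes, and for Stat3 and Lifr, which changed in opposite directions with CDDP. RefSeq sequences (GRCm38.p6) were matched for 9 of the 10 genes, Nfkbiz being the one not matched, with 13 windows of 250 bases before a start site. The STAT element TTCNNNGAA, read on both strands, was found in 1 of the 13 windows, that of Socs3, and in 7.02% of all 32851 windows of the same length. The NF-kappaB consensus was found in the window of Nfkbia and in 1 of the windows of Il1r1, and in 3.90% of all windows. Capitals mark these matches, which are descriptions of the letters and not shown to be bound. The parts of a window that overlap an annotated exon are left out.
Socs3, chr11:117969452-117969616, minus strand, STAT element 154 to 146 bases before the start site: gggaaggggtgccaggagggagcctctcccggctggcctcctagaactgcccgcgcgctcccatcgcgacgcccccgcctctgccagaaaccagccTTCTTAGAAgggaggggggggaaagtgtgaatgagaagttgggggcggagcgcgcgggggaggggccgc
Nfkbia, chr12:55492648-55492897, minus strand, NF-kappaB element 29 to 20 bases before the start site: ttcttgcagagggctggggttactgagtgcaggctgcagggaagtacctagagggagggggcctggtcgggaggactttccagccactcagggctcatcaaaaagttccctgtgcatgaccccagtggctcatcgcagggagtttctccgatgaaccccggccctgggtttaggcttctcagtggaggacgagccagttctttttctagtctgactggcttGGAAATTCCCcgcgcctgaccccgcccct
Stat3, chr11:100939541-100939790, minus strand, neither element: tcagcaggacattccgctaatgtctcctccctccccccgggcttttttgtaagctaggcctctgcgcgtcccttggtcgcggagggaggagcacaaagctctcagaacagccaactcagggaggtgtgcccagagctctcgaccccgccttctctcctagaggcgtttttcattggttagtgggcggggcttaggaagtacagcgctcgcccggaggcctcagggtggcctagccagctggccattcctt
Lifr, chr15:7129322-7129558, plus strand, neither element: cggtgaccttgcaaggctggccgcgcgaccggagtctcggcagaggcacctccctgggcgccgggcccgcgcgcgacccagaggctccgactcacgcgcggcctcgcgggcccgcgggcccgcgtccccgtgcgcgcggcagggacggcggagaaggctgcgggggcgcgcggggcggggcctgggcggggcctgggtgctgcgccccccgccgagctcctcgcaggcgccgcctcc

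Per kilobase of exon, so that genes can be compared, Nfkbia was the most abundant of the 10 in PBS liver at 34.1 ± 7.37 CPM per kb (SD, n = 5). Lifr followed at 15.9 ± 1.28 and Il1r1 at 13.6 ± 3.63, which overlapped within their spread. Socs3 (9.23 ± 3.86), Stat3 (8.29 ± 1.58), Il6ra (7.16 ± 2.31), Il6st (6.40 ± 0.492) and Nfkbiz (5.24 ± 0.734) formed a run in which each gene overlapped the next. The ends of the run could differ: the lowest Stat3 library (7.10) lay above the highest Nfkbiz library (6.34). Il1rn (0.967 ± 0.215) and Osmr (0.409 ± 0.108) were lowest. In CDDP liver Nfkbia still had the highest mean at 45.9 ± 29.7 CPM per kb. Il1r1 (39.3 ± 46.1), Stat3 (24.3 ± 15.6) and Socs3 (21.7 ± 7.09) came next, and Lifr moved from rank 2 to rank 9 at 7.59 ± 5.08. These CDDP ranks lean on replicate 5, which was the highest CDDP library for Nfkbia (97.9), Il1r1 (122), Stat3 (51.7) and Socs3 (29.8). It was the lowest for Lifr (2.10), and ranks without it are not given. In CRS liver Lifr (22.8 ± 5.86 CPM per kb) and Nfkbia (22.4 ± 3.58) had almost the same mean.

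**Figure D1:**
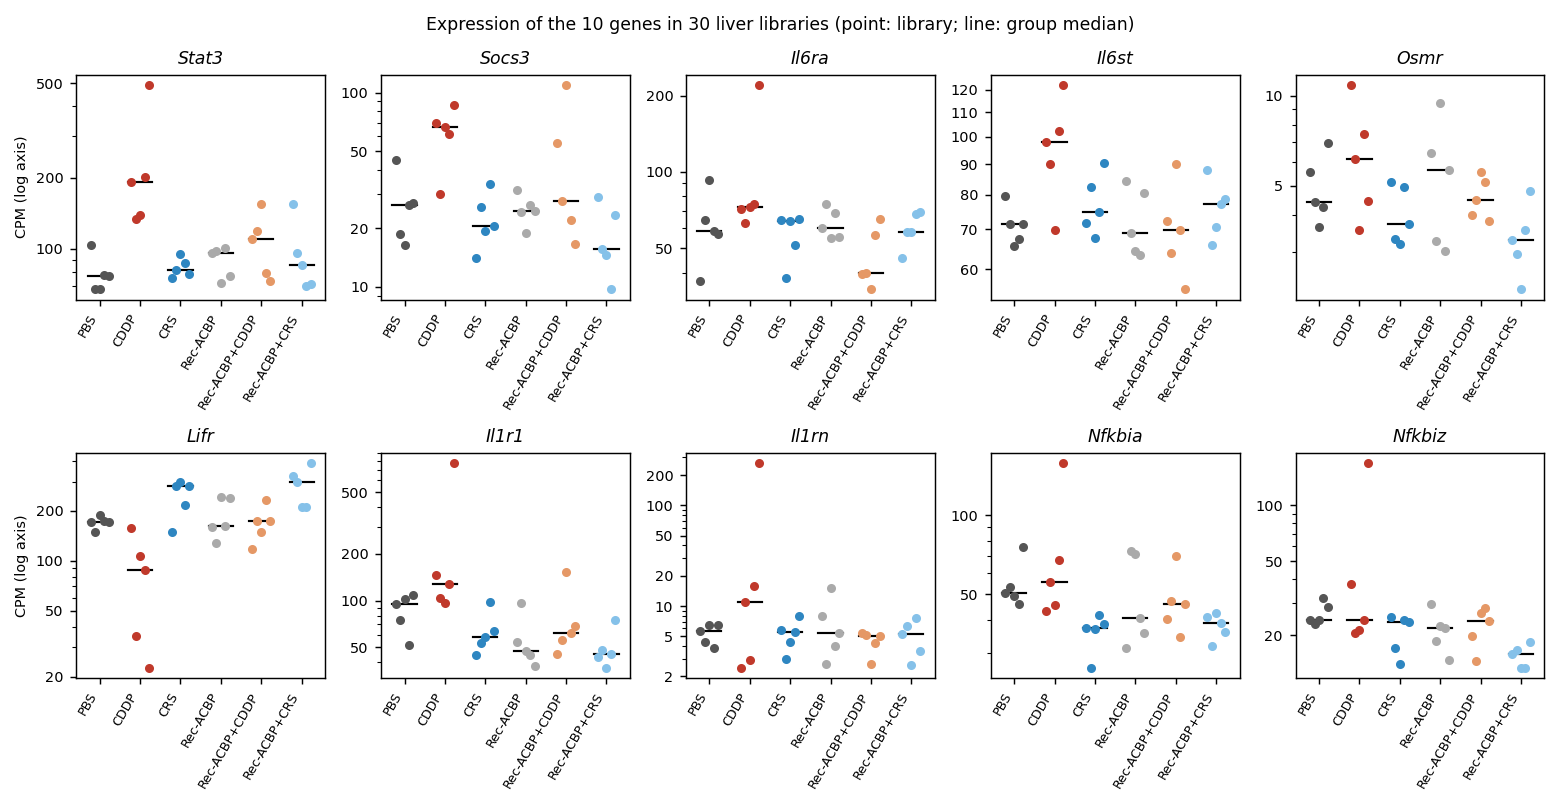
CPM of each of the 10 genes (vertical axes, logarithmic) in the 6 groups (horizontal axes); points are libraries and black lines are group medians. Stat3 in CDDP lies above every PBS library, Lifr in CDDP runs down to 22.7 CPM, and CDDP replicate 5, the last CDDP point, is the highest CDDP library for 8 of the 10 genes.

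With CDDP, 8 of the 10 genes passed the test against PBS: 7 were higher (Stat3, Socs3, Il6ra, Il6st, Il1r1, Il1rn and Nfkbiz), 1 was lower (Lifr), and Osmr and Nfkbia did not pass. Fold changes are edgeR quasi-likelihood estimates on the log2 scale with their standard error, and p-values are adjusted by Benjamini-Hochberg over the 16304 genes, with 0.05 as the threshold. CDDP changed much of the liver transcriptome: 23.1% of genes tested were higher and 18.3% lower. The median log2 fold change of the 10 genes was 0.87 against 0.02 for all genes, and 0.40 without CDDP replicate 5. For 8 of the 10 genes the highest CDDP value was in replicate 5, and without that library 3 of the 10 passed, Stat3 and Socs3 higher and Lifr lower. Over all genes the fit without it called 3397 higher and 2781 lower, 6178 in all, against 6756 with all libraries. Without the 7 libraries rich in muscle or brain transcripts 6 passed, all but Il6ra and Nfkbiz of the 8, and 5994 of all genes did.

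Stat3, the transcription factor that gp130 activates, read 104, 68.1, 67.6, 77.8 and 76.9 CPM in the 5 PBS libraries and 191, 134, 138, 202 and 492 CPM in the 5 CDDP libraries. The lowest CDDP library lay above the highest PBS library. Of the 10 genes Stat3 alone had groups that did not overlap, whereas 24.6% of all genes tested did in this comparison. The group means were 78.96 ± 15.01 and 232 ± 149 CPM (SD, n = 5), a log2 fold change 1.55 ± 0.28, adjusted p = 8.28e-05. Without CDDP replicate 5 the log2 fold change was 1.08 ± 0.22, adjusted p = 0.000351 (edgeR). Its call held in all 38 alternative analyses.

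Socs3, the feedback inhibitor that binds gp130 and JAK, read 44.9, 18.7, 16.5, 26.2 and 27.1 CPM with PBS and 69.8, 30.1, 66.5, 60.9 and 86.1 CPM with CDDP. Replicate 2 of the CDDP group, at 30.1 CPM, lay under the highest PBS library, and the other 4 CDDP libraries lay above it. The mean went from 26.7 ± 11.2 to 62.7 ± 20.5 CPM (log2 fold change 1.23 ± 0.39, adjusted p = 0.0119), and the log2 fold change without CDDP replicate 5 was 1.09 ± 0.40.

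Lifr, the LIF receptor chain that pairs with gp130, was the receptor that fell. PBS libraries were tightly grouped at 171, 150.0, 188, 175 and 171 CPM, and CDDP libraries read 157, 35.2, 107, 87.6 and 22.7 CPM. Replicate 1 of the CDDP group lay within the PBS range and the other 4 below it, with the fifth replicate lowest of all 30 libraries. The mean fell from 171 ± 13.8 to 81.8 ± 54.7 CPM (log2 fold change -1.06 ± 0.33, adjusted p = 0.0108, edgeR). Without CDDP replicate 5 the log2 fold change was -0.82 ± 0.29, adjusted p = 0.0261 (edgeR). Lifr did not pass in the edgeR fit of the compared groups alone (-1.09 ± 0.42, adjusted p = 0.0675).

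Il6ra and Il6st form the IL-6 receptor. For Il6ra, the ligand-binding chain, PBS libraries read 37.1, 64.5, 92.5, 58.5 and 56.95 CPM and CDDP libraries 71.5, 62.6, 72.6, 74.7 and 221 CPM. The first 4 CDDP libraries lay inside the PBS range and replicate 5 lay above it. Its call (log2 fold change 0.70 ± 0.27, adjusted p = 0.0417) was the weakest of the 8. Without CDDP replicate 5 the log2 fold change of Il6ra was 0.19 ± 0.21, adjusted p = 0.504 (edgeR). The call was also lost with limma voom, another test (0.29, adjusted p = 0.271), and in the edgeR fit of the compared groups alone (0.66, adjusted p = 0.172). It was lost too with another scaling (RLE, 0.68), with either other filter on low counts, and without PBS replicate 1, 2, 4 or 5 or CRS replicate 4. Il6st, the shared signalling chain gp130, read 79.7, 71.3, 65.5, 67.3 and 71.3 CPM with PBS and 97.9, 89.9, 69.6, 102 and 122 CPM with CDDP. Of the 5 CDDP libraries, 4 lay above the highest PBS library. The difference was small (log2 fold change 0.44 ± 0.14, adjusted p = 0.0141), and without CDDP replicate 5 it was 0.34 ± 0.14, adjusted p = 0.0539. Osmr, the oncostatin M receptor chain, was at 3.63 to 6.94 CPM in PBS and 3.57 to 10.9 CPM in CDDP livers, and the groups overlapped (log2 fold change 0.39 ± 0.29, adjusted p = 0.296).

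On the IL-1 side, Il1r1, the signalling receptor, read 95.4, 74.9, 102, 51.6 and 108 CPM with PBS and 147, 105, 97.01, 127 and 773 CPM with CDDP. The fifth CDDP library was over 5 times any other library of the group. The fold change (log2 fold change 1.53 ± 0.44, adjusted p = 0.00689) came to 0.46 ± 0.31, adjusted p = 0.239 without it (edgeR). Il1rn, the receptor antagonist, read 5.62, 4.42, 6.45, 3.82 and 6.44 CPM with PBS and 2.45, 10.9, 2.91, 15.8 and 263 CPM with CDDP, so that 2 CDDP libraries lay below the PBS range and 3 above it. Its log2 fold change of 3.46 ± 0.81 (adjusted p = 0.00128, edgeR) was the largest of the 10 genes, and it was 0.59 ± 0.45, adjusted p = 0.321 without replicate 5. With limma voom, which gives libraries that fit poorly a lower weight, the sign turned (-0.14).

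Nfkbia, the NF-kB inhibitor gene, read 50.5, 53.5, 49.4, 45.7 and 75.6 CPM with PBS and 43.2, 55.5, 45.5, 67.4 and 158 CPM with CDDP. The groups overlapped and the test was not passed (log2 fold change 0.43 ± 0.28, adjusted p = 0.227). Nfkbiz read 24.3, 22.98, 24.1, 31.8 and 28.3 CPM with PBS and 37.7, 20.5, 21.3, 24.1 and 168 CPM with CDDP. In 3 of the CDDP libraries Nfkbiz was at or below the PBS median of 24.3 CPM, and the call (log2 fold change 1.04 ± 0.38, adjusted p = 0.0301) rested on replicate 5: without it the log2 fold change was -0.02 ± 0.21, adjusted p = 0.949 (edgeR). The Nfkbiz call was also lost without PBS replicate 1, 2 or 3, with adjusted p between 0.0561 and 0.0581 (edgeR). It was lost too with limma voom (-0.035) and in the edgeR fit of the compared groups alone (1.01, adjusted p = 0.167).

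**Figure D2:**
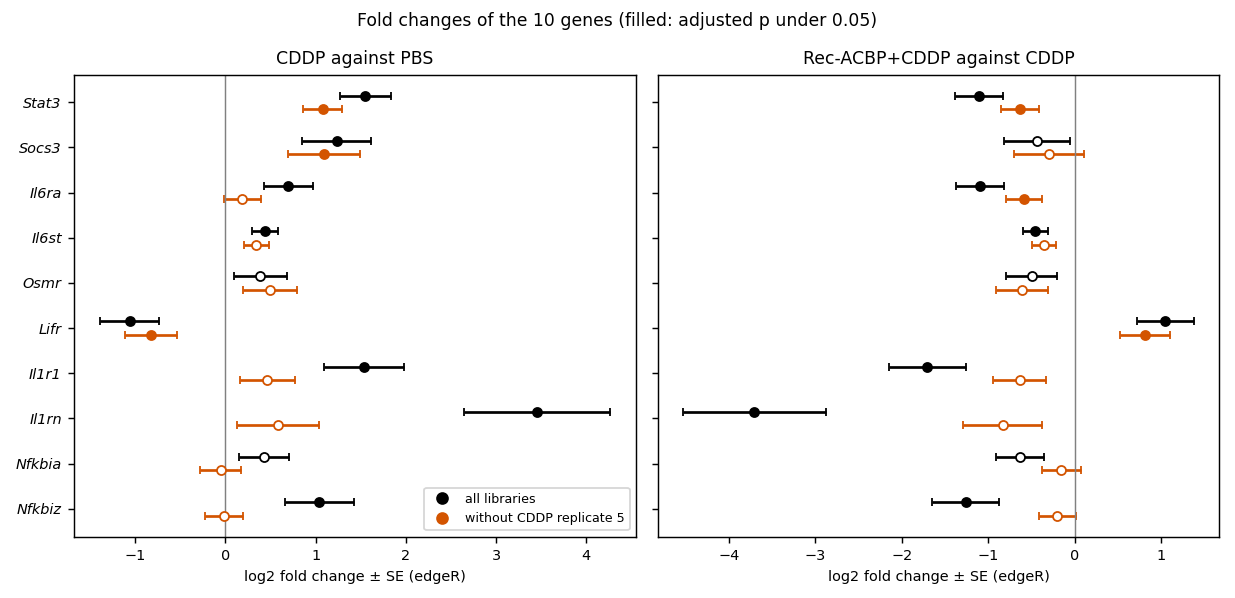
Log2 fold change (horizontal axis) with its SE for the 10 genes, CDDP against PBS on the left and Rec-ACBP+CDDP against CDDP on the right; black uses all libraries, orange leaves out CDDP replicate 5, and filled points pass the threshold. Without that library the calls go from 8 to 3 on the left and from 7 to 3 on the right, with Stat3 and Lifr kept in both. Over all genes the calls go from 6756 to 6178 and from 5503 to 4842.

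**Figure D3:**
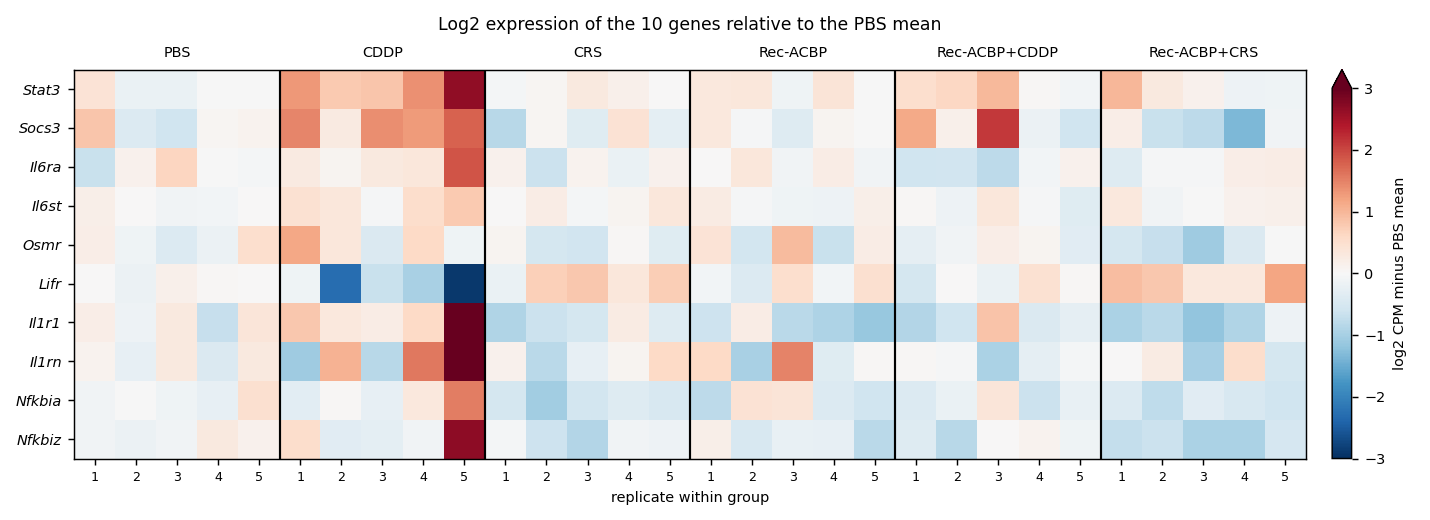
Log2 CPM of the 10 genes (rows) in the 30 libraries (columns, by group and replicate) minus the PBS mean; red is higher, blue is lower, and values above 3 share the darkest red. The fifth CDDP column is dark red for Stat3, Il1r1, Il1rn and Nfkbiz and dark blue for Lifr.

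Other genes of the routes changed with CDDP in both directions. The lists were chosen with earlier results of these data known, and their counts are to be read beside the 23.1% and 18.3% of all genes. Among the ligands, 8 of 14 had enough reads to test, and Il6, Il11, Osm, Cntf, Il36a and Il36g were not among them. Lif, the ligand of Lifr, was counted 0, 0, 0, 1 and 0 times in the PBS libraries. In the CDDP libraries Lif was counted 24, 93, 13, 39 and 19 times (adjusted p = 2.6e-06, edgeR). With almost no reads under PBS, Lif could be tested only through groups where it was higher, so this p-value adds no support to the counts. With Rec-ACBP+CDDP Lif was counted 15, 11, 29, 3 and 9 times. The gp130 ligand gene Clcf1 was also higher (12.6 ± 9.14 against 5.88 ± 1.10 CPM), and both IL-1 genes were lower, while Ctf1, Il27, Il18 and Il33 did not pass. Il1a was at 2.15 ± 1.01 CPM with CDDP against 4.07 ± 0.479 with PBS and Il1b at 0.797 ± 0.409 against 3.09 ± 1.98. With CDDP replicate 5 left out, 1 ligand gene was higher and 2 were lower.

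Of the 10 other receptor subunits tested, 2 were higher, the TNF receptors Tnfrsf1a and Tnfrsf1b, and 4 lower, Il27ra, Cntfr, Il1rl2 and Il1rap, the last being the partner chain of Il1r1 (105 ± 9.10 to 76.6 ± 18.4 CPM). In the list of 11 JAK and STAT genes, Ptpn11, the phosphatase that couples gp130 to the MAP kinase route, was the one that was higher. Stat2, Stat5a and Stat6 were lower, for example Stat2 from 186 ± 45.2 to 83.1 ± 35.7 CPM, and Stat3 had the opposite sign to these. Among 13 other inhibitors of JAK and STAT, Socs2, Ptpn1 and Ptpn2 were higher and Pias3 and Socs4 lower. Socs2, an inhibitor of growth hormone signalling, was at 209 ± 181 CPM against 39.4 ± 9.86, and at 131 ± 61.5 CPM in the 4 CDDP libraries other than replicate 5. When CDDP replicate 5 was left out, 11 receptor subunits could be tested, of which 2 were higher and 3 lower. In that fit the counts were 2 higher and 4 lower for the JAK and STAT genes and 1 and 1 for the other inhibitors.

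Downstream of the IL-1 receptor, 6 of 16 adaptors and kinases were higher, among them the kinase gene Irak1 and the adaptor Myd88 (20.7 ± 0.807 to 37.5 ± 25.1 CPM), and Chuk was lower. Of 5 NF-kB subunits 3 were higher, Rela, Relb and Nfkb2. Of 11 other NF-kB inhibitors and feedback genes 4 were higher, with Tnfaip3, the A20 feedback enzyme, at 10.4 ± 12.8 against 1.78 ± 0.651 CPM, and Birc3 was lower. Tnfaip3 was at 33.0 CPM in CDDP replicate 5 and at 4.70 ± 2.45 CPM in the other 4 libraries. These counts without CDDP replicate 5 were 3 higher and 1 lower, 1 and 0, and 3 and 2.

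The list of early response genes set up for STAT3 and C/EBP moved further, with 9 of 13 higher and none lower by the edgeR test. Its median log2 fold change was 1.78 against 0.02 for all genes, and 11 were at an unadjusted p under 0.05. Whether STAT3 or C/EBP drove these genes was not tested. Myc went from 2.98 ± 0.754 to 42.4 ± 34.3 CPM and Cebpd, a C/EBP factor gene, from 7.98 ± 1.36 to 48.4 ± 49.4, or to 26.9 ± 13.5 CPM without CDDP replicate 5. Of 25 acute phase output genes 22 were higher, with a median of 2.07. Lcn2, lipocalin-2, went from 10.2 ± 2.74 to 591 ± 743 CPM, and Serpina3n, a serine protease inhibitor, was at 1626 ± 1727 against 142 ± 16. In the 4 CDDP libraries other than replicate 5, Lcn2 was at 263 ± 141 and Serpina3n at 864 ± 327 CPM. Omitting CDDP replicate 5 gave 6 higher and 1 lower for the early response genes, with a median of 0.86, and 18 higher for the acute phase genes, with a median of 1.11.

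A further comparison asked whether the ACBP pump altered these genes under CDDP. Compared with CDDP alone, Rec-ACBP+CDDP livers had 6 of the 10 genes lower (Stat3, Il6ra, Il6st, Il1r1, Il1rn and Nfkbiz) and Lifr higher, while Socs3, Osmr and Nfkbia did not pass. Of all genes tested 18.8% were lower and 14.9% higher. The comparison shares the CDDP libraries with the one before, replicate 5 included, so its values are given side by side with those and not as separate support. Without CDDP replicate 5, Stat3, Il6ra and Lifr passed, and without the 7 libraries rich in muscle or brain transcripts 5 passed, these 3 with Il1r1 and Il1rn. Over all genes these fits called 4842 and 4835, against 5503 with all libraries. In the edgeR fit of the compared groups alone, Stat3 (adjusted p = 0.0636), Il6ra (0.0612) and Lifr (0.103) did not pass. Of the 10 genes Il1rn alone passed in that fit, which called 2217 of all genes. None of the 10 genes had groups that did not overlap, against 14.1% of all genes.

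Stat3 in Rec-ACBP+CDDP livers read 111, 119, 154, 79.4 and 73.4 CPM, which overlapped the CDDP range through replicate 3 and the PBS range through replicates 4 and 5. Against CDDP the log2 fold change was -1.11 ± 0.28 (adjusted p = 0.00285, edgeR), and -0.63 ± 0.22, adjusted p = 0.0275 without CDDP replicate 5. Lifr read 118, 173, 149, 233 and 174 CPM, with 2 of the 5 libraries inside the PBS range, 2 below it and 1 above. Its log2 fold change against CDDP was 1.05 ± 0.33 (adjusted p = 0.0144, edgeR) and 0.81 ± 0.29 without the fifth CDDP library. Il6ra read 39.4, 39.9, 34.4, 56.3 and 65.1 CPM, and 4 of these libraries lay below the lowest CDDP library of 62.6 CPM (log2 fold change -1.09 ± 0.28, adjusted p = 0.00325). For Il6ra the value without CDDP replicate 5 was -0.58 ± 0.21, adjusted p = 0.0338 (edgeR).

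Socs3 was the most scattered gene under the combined treatment, at 55.1, 27.8, 109.7, 22.1 and 16.6 CPM. Replicates 1 and 3 lay above the PBS range and the others inside it, and the highest value, in replicate 3, was above every CDDP library. The difference from CDDP was -0.44 ± 0.38 (adjusted p = 0.391, edgeR). When Rec-ACBP+CDDP replicate 3 was left out, Socs3 passed with -1.04 ± 0.35, adjusted p = 0.0238. That library also had the lowest summed hepatocyte markers of the 30, 41774 CPM.

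Il6st read 72.3, 63.9, 90.02, 69.6 and 55.5 CPM with the combined treatment (log2 fold change -0.46 ± 0.14, adjusted p = 0.014). Il1r1 read 45.1, 55.3, 152, 61.8 and 68.9 CPM, one library in the CDDP range and the others at or below the PBS median (log2 fold change -1.70 ± 0.45, adjusted p = 0.00425). Il1rn read 5.41, 5.15, 2.66, 4.33 and 4.99 CPM and lay wholly within the span of the 5 CDDP libraries (log2 fold change -3.70 ± 0.82, adjusted p = 0.0011). Nfkbiz read 19.8, 14.6, 26.4, 28.2 and 23.98 CPM (log2 fold change -1.26 ± 0.39, adjusted p = 0.0123), and Nfkbia 40.3, 47.1, 69.6, 34.4 and 46.02 CPM (log2 fold change -0.63 ± 0.28, adjusted p = 0.0797). None of these 5 genes passed without CDDP replicate 5: the log2 fold changes were -0.36 for Il6st, -0.64 for Il1r1, -0.83 for Il1rn, -0.20 for Nfkbiz and -0.16 for Nfkbia.

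Relative to the Rec-ACBP pump alone, CDDP changed none of the 10 genes by edgeR's quasi-likelihood test (0.129% of all genes were called), and 1 of the 10 had an unadjusted p under 0.05, namely Socs3 (log2 fold change 0.88 ± 0.38 and adjusted p = 0.889). DESeq2 and limma voom also called 0. The difference between the CDDP effects under the 2 pumps was tested as an interaction, which called 19.7% of all genes. It passed for 3 of the 10 genes: Stat3 (-1.28 ± 0.39, adjusted p = 0.0201, edgeR), Il6ra (-1.11 ± 0.39, adjusted p = 0.0415) and Il1rn (-4.09 ± 1.10, adjusted p = 0.0105). Under the ACBP pump the CDDP estimates, none of them called, were 0.27 ± 0.27 for Stat3, -0.41 ± 0.27 for Il6ra and -0.64 ± 0.77 for Il1rn. Under the PBS pump they were 1.55, 0.70 and 3.46. By edgeR none of the 3 passed without CDDP replicate 5, with Stat3 at -0.81 ± 0.30, adjusted p = 0.0571, Il6ra at -0.60 ± 0.28, adjusted p = 0.137 and Il1rn at -1.22 ± 0.63, adjusted p = 0.17.

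Genes outside these routes also had different levels under the 2 pumps. Cdkn1a, the p21 gene that p53 induces after DNA damage, was at 311 ± 129 CPM with CDDP and 34.9 ± 24.3 CPM with Rec-ACBP+CDDP, against 3.23 ± 2.93 with PBS. Hba-a1, a haemoglobin gene, was at 1.34 ± 0.353 CPM with CDDP and 423 ± 222 CPM with Rec-ACBP+CDDP, and the summed neutrophil and monocyte markers at 19.4 to 79.3 and 3.19 to 10.2 CPM. Of the 5 such markers tested, Chil3, S100a8 and S100a9 were lower with the combined treatment by edgeR, and Ly6c2 and Ccr2 did not pass. Summed Kupffer cell markers overlapped (182 to 265 CPM with the combined treatment and 194 to 291 CPM with CDDP), but Clec4f (1.11 ± 0.24) and Timd4 (0.82 ± 0.25) were higher and Marco (-1.77 ± 0.36) lower on the log2 scale. B and plasma cell markers summed to 6.65 to 23.3 CPM and T and NK cell markers to 4.34 to 7.23 CPM with the combined treatment, above every CDDP library. Whether the 2 groups received the same exposure to CDDP was not tested.

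Between CDDP and Rec-ACBP+CDDP, 20 of 25 acute phase genes were lower with the combined treatment, 10 of 13 early response genes were lower and 1 was higher (Bcl6), and Stat2, Stat5a and Stat6 were each higher while Ptpn11 was lower. Of 5 NF-kB subunits 3 were lower, and of 16 IL-1 adaptors and kinases 4 were lower and 1, Chuk, higher. No ligand gene passed by edgeR, with 2 of 8 at an unadjusted p under 0.05, and DESeq2 called 2. These counts compare with the 18.8% and 14.9% of all genes. The early response count without CDDP replicate 5 was 5 lower and 1 higher, and the acute phase count 19 lower.

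With CRS, none of the 10 genes passed against PBS by edgeR or DESeq2, 1 (Nfkbia) had an unadjusted p under 0.05, and limma voom called that 1. Of all genes tested 0.141% were called. Nfkbia read 37.4, 26.3, 36.8, 41.5 and 38.4 CPM with CRS, below every PBS library (-0.61 ± 0.28, adjusted p = 0.537, edgeR). It was the 1 gene of the 10 whose groups did not overlap, against 4.31% of all genes. Lifr read 149, 282, 299, 216 and 284 CPM, with 4 of 5 libraries above the PBS range and replicate 1 just under it (log2 fold change 0.52 ± 0.33, adjusted p = 0.655). Stat3 read 75.4, 81.5, 95.03, 87.02 and 78.5 CPM (0.08 ± 0.27) and Socs3 14.1, 25.9, 19.5, 33.8 and 20.5 CPM (-0.23 ± 0.38), both overlapping PBS. For Il6ra, Il6st, Osmr, Il1r1, Il1rn and Nfkbiz the log2 fold changes with CRS ran from -0.44 (Il1r1) to 0.12 (Il6st).

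Acute phase genes did change with CRS. Of the 25 in the list, 5 were higher with CRS (Saa1, Saa2, Lcn2, Orm2 and Apcs), with a median log2 fold change of 0.86 over the list against 0.00 for all genes. Saa1, serum amyloid A, went from 10.9 ± 2.24 CPM with PBS to 1319.5 ± 570.1 with CRS, and was at 857 ± 1609 with CDDP, where the fifth library alone held 3732 and the other 4 had a mean of 139 ± 101. No gene of the 8 other lists passed with CRS by edgeR: 3 ligand genes and 1 gene each of 5 other lists had an unadjusted p under 0.05, and limma voom called 1 gene in each of 4 lists. In the plot of pathway genes by list, these 5 acute phase genes are the filled points with CRS. The 3 ligand genes, not filled, lie on both sides. Lif lies to the right (log2 fold change 2.60, adjusted p = 0.492, edgeR). Il1b (-1.52, adjusted p = 0.370, edgeR) and Il1a (-0.57, adjusted p = 0.538, edgeR) lie to the left.

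**Figure D4:**
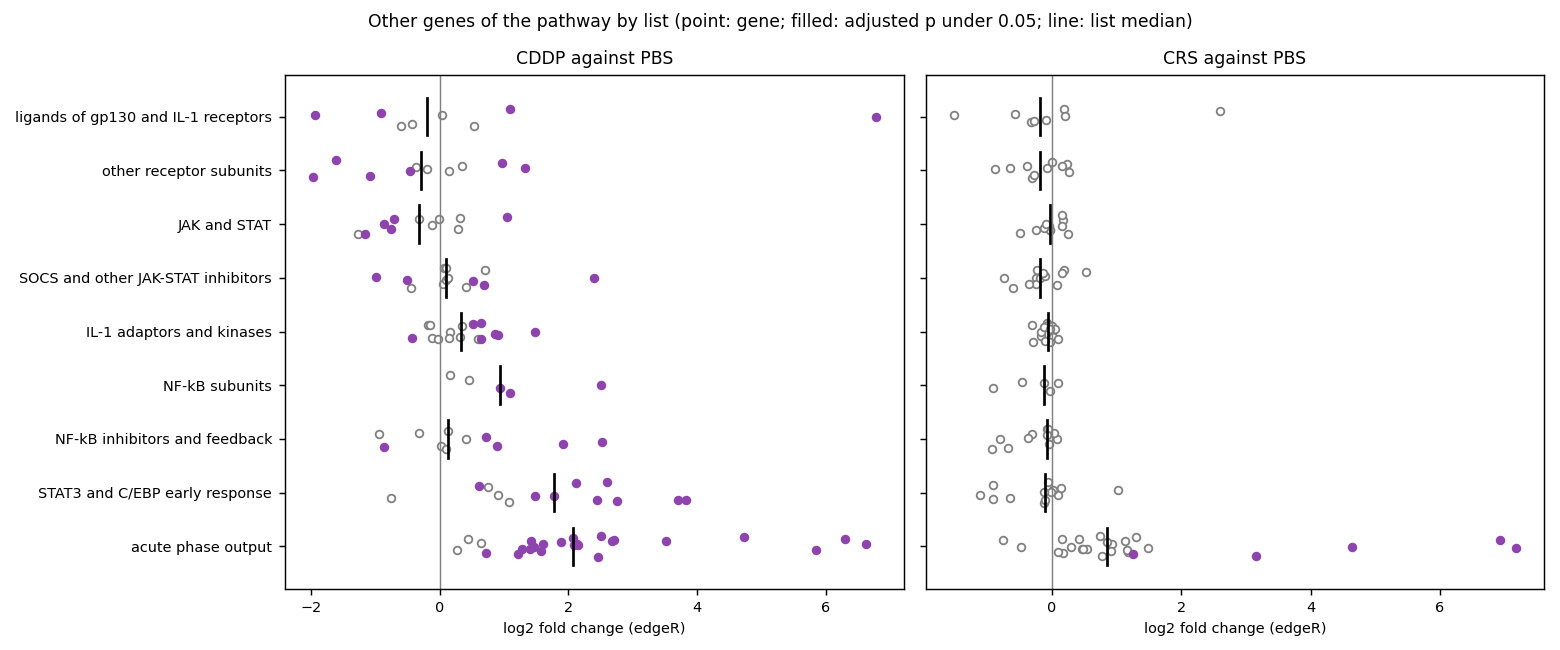
Log2 fold change (horizontal axis) of the tested genes of 9 pathway lists (rows), CDDP against PBS on the left and CRS against PBS on the right; points are genes, filled where they pass the threshold, and bars are list medians. With CDDP 22 of 25 acute phase genes and 9 of 13 early response genes are filled, and with CRS 5 acute phase genes are.

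With CRS averaged over both pumps, none of the 10 genes passed by edgeR (0.687% of all genes did) or DESeq2, and 3 had an unadjusted p under 0.05: Nfkbia (-0.51 ± 0.20, adjusted p = 0.223), Lifr (0.58 ± 0.23, adjusted p = 0.23) and Osmr (-0.50 ± 0.21, adjusted p = 0.243). Nfkbia and Lifr passed with limma voom (-0.45 and 0.53) and in a fit of the 4 groups compared alone. Lifr in the Rec-ACBP+CRS libraries read 327, 301, 212, 212 and 389 CPM, and 2 of them lay within the Rec-ACBP range of 129 to 243 CPM. Nfkbia in those libraries read 40.9, 31.7, 42.6, 38.9 and 35.95 CPM, all within the Rec-ACBP range of 31.3 to 73 CPM. With CRS added to the ACBP pump, 0 of the 10 passed by edgeR, DESeq2 or limma voom (0% of all genes by edgeR), and Osmr alone had an unadjusted p under 0.05 (log2 fold change -0.72 ± 0.30).

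The ACBP pump alone changed none of the 10 genes against the PBS pump: 0 passed by edgeR, DESeq2 or limma voom, 0 had an unadjusted p under 0.05, and edgeR called 0% of all genes. The log2 fold changes ran from -0.62 ± 0.44 for Il1r1 to 0.39 ± 0.76 for Il1rn. Il1r1 read 54.3, 97.01, 47.4, 44.2 and 37.8 CPM with the ACBP pump, and 3 of these libraries lay below the lowest PBS library of 51.6 CPM. Stat3 read 96.5, 98.4, 71.5, 101 and 77.3 CPM and Socs3 31.4, 24.3, 19, 26.4 and 24.6 CPM, all inside the PBS ranges. Added to CRS, the ACBP pump likewise changed 0 of the 10 by the same 3 tools, with 0 at an unadjusted p under 0.05 and 0% of all genes called, and the interaction of CRS with the pump gave the same counts. The SE of the 10 estimates for the pump alone ran from 0.14 for Il6st to 0.76 for Il1rn.

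CDDP and CRS, the 2 ways of inducing anorexia, were compared directly. CDDP livers had 7 of the 10 genes higher than CRS livers and Lifr lower, against 19.5% and 15.1% of all genes. Stat3 (1.47 ± 0.28, adjusted p = 0.000203, edgeR) and Nfkbia (1.03 ± 0.28, adjusted p = 0.00571, edgeR) had libraries that did not overlap, as 19.2% of all genes did. Lifr differed most among the receptors of the gp130 family (-1.59 ± 0.33, adjusted p = 0.000582, edgeR), its mean being above PBS with CRS and below it with CDDP. Socs3 (1.46), Il6ra (0.82), Il1r1 (1.97), Il1rn (3.46) and Nfkbiz (1.38) were also higher with CDDP, and Il6st and Osmr did not pass. In the fit without CDDP replicate 5, 4 genes passed: Stat3 (1.0), Socs3 (1.32) and Il1r1 (0.90) higher and Lifr (-1.35) lower. Without CRS replicate 2 Il6ra missed the threshold (adjusted p = 0.0615, edgeR).

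The spread within groups differed among the genes. Il6st was among the steadiest, its highest library being 1.22 to 1.76 times its lowest across the 6 groups. Stat3 was steadier with CRS (1.26 against 1.33 times) and Osmr with Rec-ACBP+CDDP (1.45 against 1.62 times). Lifr varied 1.26 times with PBS and 6.92 times with CDDP, and Il1rn 1.69 times with PBS and 107 times with CDDP. Socs3 varied 6.61 times with Rec-ACBP+CDDP, more than in any other group.

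The genes most like each of the 10 across the 30 libraries were found among 12116 genes by the smallest root mean square difference of centred log2 CPM, as a description. For Stat3 these were Abca6 (0.27), Tgm2 (0.27) and Hip1r (0.29), against a standard deviation of 0.61 for Stat3 itself. Nothing came as near to Socs3, with Map4k4 at 0.48 against a standard deviation of 0.81. Lifr was nearest to Cmah (0.34), Afm (0.37) and Cyp4f14 (0.39), with a standard deviation of 0.84. Il1r1 was nearest to Nrbp2 and Slc39a14 (both 0.41, against 0.86), Il1rn to Bcl2l11 (0.69, against 1.21) and Nfkbiz to Zc3h12a (0.34, against 0.65). The 30 points share the CDDP group, whose replicate 5 is extreme for several of these genes.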

How the data were processed

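Liver RNA of 30 libraries was sequenced from strand-specific mRNA libraries, per the labels' protocols. The deposited table holds raw read counts per gene, 48440 genes by 30 libraries, all of them mapped to a sample; HISAT2 2.2.1, HTSeq 2.0.3 and mm10 are named in the submitters' processing notes. Rows that name no gene were left out, and a median of 38.0% of reads per library fell on genes. Counts of the closest replicate pairs differed by more than sampling noise.

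Genes were filtered by filterByExpr, scaled by TMM and tested with edgeR 4.0.16 (quasi-likelihood, R 4.3.3) in one fit of all 6 groups with 24 residual degrees of freedom, 11 comparisons, Benjamini-Hochberg adjustment over the 16304 genes of each, and a threshold of 0.05. SEs are the log2 fold change over the square root of F. All 10 genes, all ligands and up to 4 passing genes of smallest p per list are named, except 1 that is not reported here; Il1rap, Bcl6, Cdkn1a, Hba-a1, single cell type markers and passing genes beyond 4 in a list were chosen after their values were seen. Alternatives were RLE scaling, 2 other filters, DESeq2 1.42.0, limma 3.58.1 voom with quality weights, fits of the compared groups alone and each library left out; leaving out libraries rich in muscle or brain transcripts, with or without CDDP replicate 5, was chosen after seeing the data. The edgeR, voom and DESeq2 steps were tested on simulated data in which a gene had the same spread in every group. That simulation does not cover a group as scattered as CDDP, where the Il1rn coefficient of variation was 193% against 22.3% with PBS. The 10 genes, gene lists and markers were chosen with earlier results of these data known.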

Additional observations from a re-analysis of the deposited data

Results flagged for a closer look

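Libraries far from the other 4 of their group were found among the 10 genes in 11 cases, by the gap to the nearest library over the group's range; chance flags about 1 in 20 groups, and in these data 7.04 to 12.4% of all genes tested had such a library in a group. CDDP replicate 5 accounts for 6 of them, with Stat3 at 492 CPM (other libraries 134 to 202), Il6ra at 221 CPM (62.6 to 74.7), Il1r1 at 773 CPM (97.0 to 147), Il1rn at 263 CPM (2.45 to 15.8), Nfkbia at 158 CPM (43.2 to 67.4) and Nfkbiz at 168 CPM (20.5 to 37.7). That library stood apart for 8.13% of all genes, the highest share of the 30. Its neutrophil and monocyte markers summed to 44.5 CPM, inside the range of its group.

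Il1r1 had 1 high library in each of 3 further groups: 97.0 CPM in Rec-ACBP replicate 2 (others 37.8 to 54.3), 152 CPM in Rec-ACBP+CDDP replicate 3 (others 45.1 to 68.9) and 75.3 CPM in Rec-ACBP+CRS replicate 5 (others 36.9 to 47.8). In the PBS group, Stat3 was high in replicate 1 at 104 CPM (others 67.6 to 77.8) and Nfkbia in replicate 5 at 75.6 CPM (others 45.7 to 53.5).

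The effect of CDDP differed between the PBS and ACBP pumps by the interaction test for Stat3 (log2 difference -1.28, edgeR), Il6ra (-1.11) and Il1rn (-4.09), and for none of the 3 without CDDP replicate 5.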

How the results depend on the processing

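Beyond edgeR on all libraries, 38 alternatives were run, 30 of them leaving out 1 library. Of the 10 genes with CDDP against PBS, the count that passed was 8, and 3 to 8 when 1 library was left out, 3 with limma voom (2 higher, 1 lower), 3 in a fit of the compared groups alone (Stat3, Socs3 and Il1rn higher) and 2 without the muscle-rich and brain-rich libraries and CDDP replicate 5 (Stat3 and Lifr). For Rec-ACBP+CDDP against CDDP it was 7, and 3 to 9, 3 with voom, 1 (Il1rn) in the fit of the compared groups alone and 2 without those libraries. For CDDP against CRS it was 8, and 4 to 10, 4 with voom and 4 without those libraries. For the interaction of CDDP and pump it was 3, and 0 to 4, 1 with voom, 1 without the muscle-rich and brain-rich libraries and 0 when CDDP replicate 5 was also left out. For CRS against PBS it was 0, and 1 with voom (Nfkbia); for CRS over both pumps 0, and 2 (Lifr and Nfkbia) with voom and with the compared groups alone. The lowest counts with 1 library left out were those without CDDP replicate 5. Signs turned for Il1rn with voom (-0.14 for CDDP against PBS, 0.088 for Rec-ACBP+CDDP against CDDP and -0.20 for CDDP against CRS) and for Nfkbiz with CDDP against PBS (log2 fold change -0.035 with voom, -0.020 without CDDP replicate 5, where the highest value with 1 library left out was 1.25, and -0.079 when the muscle-rich and brain-rich libraries were left out as well). The cause was not tested. The Il6ra interaction missed the threshold in 10 of the 30 fits without 1 library. Counts over all genes varied more for CRS against PBS: 23 with edgeR, 80 with DESeq2, 930 with limma voom and 265 with the compared groups alone. For CRS over both pumps they were 112, 367, 2027 and 919. Leaving out the muscle-rich and brain-rich libraries gave 9 and 30 genes, and 1722 in place of 3216 for the interaction of CDDP and pump. Rec-ACBP+CDDP against Rec-ACBP had 21 with edgeR, 91 with DESeq2, 70 with limma voom, 2 with the compared groups alone and 0 without the muscle-rich and brain-rich libraries, and Rec-ACBP+CDDP against CDDP 5503 with edgeR, 3530 with limma voom and 2217 with the compared groups alone. CDDP against CRS had 5639 and, with the compared groups alone, 3709. CDDP against PBS had 6756 with edgeR, 6384 with limma voom and 4789 with the compared groups alone. Without the muscle-rich and brain-rich libraries and CDDP replicate 5 it had 5771. Where edgeR called 0 genes, DESeq2 and limma voom called 9 and 2 for Rec-ACBP against PBS, 1 and 3 for Rec-ACBP+CRS against CRS, 20 and 19 for Rec-ACBP+CRS against Rec-ACBP, and 4 and 1 for the interaction of CRS and pump. No paired analysis was possible because the labels number the libraries in 1 series and give no number shared between groups. Low counts limit Osmr and Il1rn, at a few CPM per library outside the CDDP group.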
